A study of Mus musculus with 12 samples.

Results

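The 9 genes described here encode transcription factors of the macrophage lineage: Spi1, Cebpa, Cebpb, Irf8, Runx1, Maf, Mef2c, Mitf and Klf4. They were chosen by name among 20661 autosomal protein-coding genes. For each, all ATAC-seq peaks that overlapped the gene body with 100 kb on each side were taken from every library. Peaks that overlapped by at least 1 bp were merged across libraries, which gave 411 regions in the 9 windows among 144562 autosomal regions.

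Macrophages arise from myeloid progenitors under the control of a small set of transcription factors. PU.1, encoded by Spi1, opens enhancers together with C/EBP, IRF and RUNX factors, and MAF, KLF4, MEF2C and MITF act later or in particular macrophage states. Several of these genes are themselves controlled by distal enhancers, which ATAC-seq can show as open chromatin because a transposase cuts and tags accessible DNA.

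The cells were mouse bone marrow-derived macrophages (BMDMs), with Baf60a present (WT) or knocked out (KO). Baf60a, the product of Smarcd1, belongs to the SWI/SNF complex, which moves nucleosomes. They were left untreated or given 50 µg/ml oxidised LDL (oxLDL) for 48 h, a modified lipoprotein that loads macrophages with lipid. The first cohort had 1 Omni-ATAC library in each of 4 groups, and its labels give no ApoE status and no Cre. In the ApoE KO cohort, with 2 libraries in each of 4 groups, all cells lacked ApoE, carried floxed Baf60a and had been cryopreserved, and KO cells also carried Lyz2-Cre, which deletes in myeloid cells. Library protocol, freezing and peak caller (MACS3 or MACS2) differed together between the cohorts, and background may have, so their parts cannot be told apart. File names of the ApoE KO cohort carry a mark whose meaning is not given in the sources used here. It reads L001 for both untreated WT libraries and oxLDL KO replicate 1, and L003 for the other 5. Within that cohort, genotype without oxLDL and oxLDL in WT cannot be told apart from this mark. Nothing in the labels ties replicates to separate animals, and p-values therefore cover the spread among these libraries only.

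Full lists held 82177 to 141441 peaks in the first cohort and 24397 to 44524 in the ApoE KO cohort, so counts of peaks were compared in lists of equal length, which keep the peaks of highest score. Reads were not among the files used, and sequencing depth is unknown. Peaks lay within 1 kb of a gene boundary at all 8 macrophage markers checked in every first-cohort library and at 5 to 8 of them in the ApoE KO cohort. Adgre1, Cd68, Mertk, Lyz2 and Cd14 were marked in all 12 libraries. B cell markers were marked at 0 to 4 of 5 genes in the first cohort and at 0 in the ApoE KO cohort, with Cd79b at 0 throughout. T and NK cell markers were marked at 1 to 2 of 5 and 0 to 1 of 5, with Cd8a and Ncr1 at 0. Of 5 neutrophil markers 2 and 1 were marked, with Ly6g, Mpo and Elane at 0, and of 5 erythroid and megakaryocyte markers 3 to 4 and 1 to 3, with Klf1 at 0. S100a8 and Pf4 were marked in all 12 libraries. Mast cell and basophil markers were at 0 of the 3 matched genes, and fibroblast markers at 0 to 1 of 3. The part of these cells in the results was not tested.

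Before the values by gene, the start sequences show which promoters were in called chromatin. RefSeq starts on build mm10 (GRCm38.p6) were found in the promoter table for 7 of the members, with 13 starts in all, and a window from 180 bases before to 20 after each start was examined. A window counts as called in a library where a peak of that library overlaps it. Starts of Irf8, Mef2c and Mitf are shown because they differed within a gene. The first Irf8 and first Mitf starts were called in 12 of 12 libraries, the second Mef2c start in 6, and the second Irf8 start, the first Mef2c start and the third Mitf start in 0. Cebpa, with 1 start in the table, and both Runx1 starts are shown as windows called in 12 of 12 that differed in base composition. Sequences run 5′ to 3′ on the gene's strand. Capitals mark a match on either strand to one of 6 motifs, spelled out after the GC values, and matches that overlap or touch form 1 run of capitals.
Cebpa start: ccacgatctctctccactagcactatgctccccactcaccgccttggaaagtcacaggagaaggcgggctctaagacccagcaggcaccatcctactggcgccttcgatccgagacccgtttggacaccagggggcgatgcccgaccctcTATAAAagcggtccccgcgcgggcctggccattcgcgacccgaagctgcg
Irf8 start 1: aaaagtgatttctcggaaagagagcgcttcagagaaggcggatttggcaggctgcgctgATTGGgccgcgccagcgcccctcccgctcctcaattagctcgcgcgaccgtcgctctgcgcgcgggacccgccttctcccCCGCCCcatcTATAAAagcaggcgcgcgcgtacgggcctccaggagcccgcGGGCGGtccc
Irf8 start 2: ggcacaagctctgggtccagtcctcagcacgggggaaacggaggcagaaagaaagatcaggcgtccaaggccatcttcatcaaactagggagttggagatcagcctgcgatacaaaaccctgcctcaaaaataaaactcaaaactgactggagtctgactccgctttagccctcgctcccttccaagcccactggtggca
Runx1 start 1: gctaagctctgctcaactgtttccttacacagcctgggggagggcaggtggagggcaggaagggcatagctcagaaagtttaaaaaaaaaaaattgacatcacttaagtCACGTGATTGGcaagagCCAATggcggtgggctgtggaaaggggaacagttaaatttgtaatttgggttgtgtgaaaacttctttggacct
Runx1 start 2: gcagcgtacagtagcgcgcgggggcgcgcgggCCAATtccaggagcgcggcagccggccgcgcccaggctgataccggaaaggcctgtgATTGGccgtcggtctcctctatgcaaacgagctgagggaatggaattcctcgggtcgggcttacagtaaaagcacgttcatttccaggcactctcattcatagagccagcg
Mef2c start 1: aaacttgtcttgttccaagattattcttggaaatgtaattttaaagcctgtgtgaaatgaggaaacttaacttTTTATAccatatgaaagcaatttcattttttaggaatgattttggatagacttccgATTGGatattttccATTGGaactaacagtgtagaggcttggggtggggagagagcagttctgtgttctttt
Mef2c start 2: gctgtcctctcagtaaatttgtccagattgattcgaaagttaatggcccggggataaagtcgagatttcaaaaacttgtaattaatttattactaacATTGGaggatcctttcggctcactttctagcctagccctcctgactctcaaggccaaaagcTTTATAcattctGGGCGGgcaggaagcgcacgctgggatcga
Mitf start 1: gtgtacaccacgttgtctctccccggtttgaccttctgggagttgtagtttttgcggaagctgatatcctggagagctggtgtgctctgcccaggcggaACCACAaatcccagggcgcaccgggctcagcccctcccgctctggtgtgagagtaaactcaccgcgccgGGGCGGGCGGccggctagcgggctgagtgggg
Mitf start 3: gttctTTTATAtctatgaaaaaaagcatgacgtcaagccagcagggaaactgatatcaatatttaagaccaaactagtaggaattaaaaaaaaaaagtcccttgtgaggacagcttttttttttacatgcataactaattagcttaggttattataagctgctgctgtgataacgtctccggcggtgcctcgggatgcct

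Among all 31396 start windows of the table, 26.8% were called in 12 libraries, with a median GC content of 64% and a median of 17 CpG. Another 52.2% were called in 0, with a median of 48% GC and 2 CpG. Cebpa, at 63.5% GC and 17 CpG, lay close to the median of the called set. Runx1's first start differed from it, with 46% GC and 2 CpG, and was called in all 12 libraries. Its second start had 62% GC and 20 CpG. Mef2c's uncalled first start had 34.5% GC and 1 CpG against 45% and 8 CpG at its second start. At Mitf the third start, uncalled, had 37.5% GC and 5 CpG against 64% and 14 CpG at its first. Cebpb had the highest GC content of the member windows, 82% with 35 CpG, and was called in all 12 libraries, as was Klf4 with 69% and 24 CpG. The second Irf8 start, at 53.5% GC and 6 CpG, was called in 0 although the first start nearby, at 67.5% and 26 CpG, was called in all.

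The TATA box letters TATAAA occurred in the called windows of Cebpa and the first start of Irf8, in the second Mef2c window, and in the uncalled windows of the first Mef2c start and the third Mitf start. They occurred in 9.43% of all start windows. The GC box GGGCGG occurred in 32.1% of all windows and here at Cebpb, Irf8, Mef2c (second start), Mitf (first start) and Klf4. CCAAT occurred in 29% of all and in 6 of the 13 member windows, at both Runx1 starts, the first Irf8 start, the first and second Mef2c starts and the second Mitf start. The E-box CACGTG occurred in 5.38% of all windows and, among the members, at the first Runx1 start. TGTGGT, a RUNX core, occurred in 11.1% of all and at the first Mitf start, and GAGGAAG, a PU.1 core, in 9.04% of all and in none of the 13 member windows. A match to letters is a description of the window and not a site.

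Of the 411 member regions, 58 (14.1%) were called in all 12 libraries, against 12% of all regions. Another 74 (18.0%, against 15.7% of all) had peaks in all 4 first-cohort libraries and in 0 of the other 8. They numbered 18 at Runx1, 13 at Irf8, 12 at Cebpb, 10 at Mitf, 9 at Spi1, 6 at Cebpa, 3 at Maf, 2 at Mef2c and 1 at Klf4. The reverse, 0 of 4 and 8 of 8, occurred at 0 member regions and at 0.0387% of all. Regions at gene boundaries were called in all 12 libraries more often than others, 17 of 37 in the members' windows (45.9%, against 42.0% of all boundary regions). Inside genes the count was 18 of 175 (10.3%, against 7.40%), and outside genes 23 of 199 (11.6%, against 7.78%). No test was made of these shares.

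Peaks per 100 kb of window put the members in an order. In the first cohort Cebpb had 16.4 ± 0.702 peaks per 100 kb (SD over 4 libraries), Irf8 14.2 ± 0.435, Cebpa 13.3 ± 0.57, Spi1 11.1 ± 1.52 and Runx1 11 ± 1.08. Mitf followed with 6.94 ± 0.457, then Maf with 6.75 ± 0.737, Mef2c with 5.65 ± 0.159 and Klf4 with 5.48 ± 0.243. The median over all genes was 6.36. Irf8 and Cebpa did not differ beyond their spread, nor did Spi1 and Runx1, Mitf and Maf, or Mef2c and Klf4.

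Cebpb was again first in the ApoE KO cohort (SD over 8 libraries), with 7.69 ± 0.593 peaks per 100 kb against a median of 1.87 over all genes, above 99.7% of genes. Cebpa followed with 4.93 ± 0.698, Spi1 with 4.23 ± 0.74, Maf with 3.13 ± 0.521, Klf4 with 3.04 ± 0.504 and Irf8 with 2.95 ± 0.42. Runx1 had 2.27 ± 0.435, Mef2c 2.13 ± 0.321 and Mitf 1.54 ± 0.363. Cebpb stood apart from Cebpa by more than their spread, and each pair of neighbours from Cebpa down to Mitf overlapped within 1 SD. Irf8 stood above 95.6% of genes in the first cohort and above 72.9% in the ApoE KO cohort, and Runx1 above 82.7% and 59%. Klf4 went the other way, from 43.6% to 74.6%, as did Maf, from 52.9% to 76.1%. No test was run between cohorts.

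**Figure D1:**
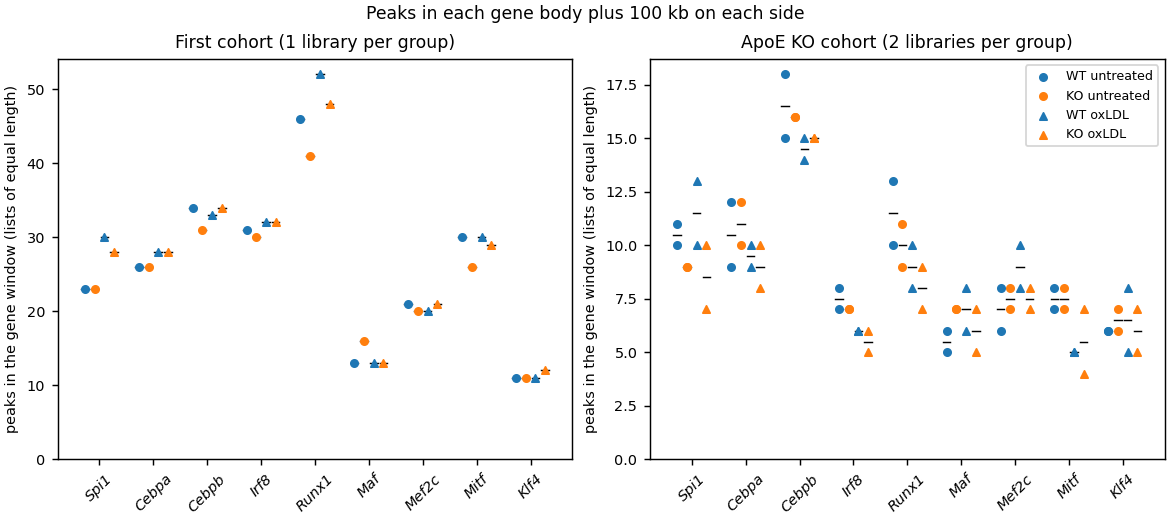
Peaks in each gene body plus 100 kb on each side (y axis, number of peaks in lists of equal length) for the 9 genes (x axis), by cohort. Points are libraries, colours genotypes, shapes treatments, and short black lines group means. Runx1 had the most peaks in the first cohort, 41 to 52, and Cebpb in the ApoE KO cohort, 14 to 18.

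For single regions, 2 measures of the authors' peak score are used. The score percentile is the rank of a region's highest peak within its library's whole list, and since lists differ in length no change between libraries is read from it. The shared rank is the rank, in percent, among the 17343 regions called in all 12 libraries, and it was used for every test of score. Width is the number of bases covered by peaks. The leading region of a gene is the one with the highest mean percentile once regions at starts and at known enhancer distances are set aside.

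Spi1 (gene 20375, chr2:91082374-91115759) encodes PU.1. Its window held 39 regions, 9 of them called in all 12 libraries. The table gives no start for Spi1, and distances are from its lower gene boundary. The region at that boundary (chr2:91082095-91084049) was called in all 12, at percentiles of 70.3 to 80.8 in the first cohort and from 17.3 over a median of 49.3 to 63.6 in the ApoE KO cohort. A wide region 15.4 kb inside the gene (chr2:91096341-91099117) was named once its values were known. It was called in 11 of 12, with WT oxLDL replicate 1 of the ApoE KO cohort as the exception. PU.1 controls its own gene through an upstream regulatory element. The main promoter's position is not in the tables used, so the element is not assigned to a region here.

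The highest percentiles in the Spi1 window were not at Spi1 itself. A region at -12.2 kb, at a boundary of Slc39a13, was called in all 12 at 93.6 to 95.6 in the first cohort and 86.7 to 97.9 in the ApoE KO cohort. Another at -28.1 kb, in Psmc3, ranged from 89.6 to 92.1 and from 49.6 to 83.4. At the far end, regions at 101, 114 and 120 kb overlapped Nr1h3, which encodes the oxysterol receptor LXRα, and were called in all 12 libraries.

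Cebpa (gene 12606, chr7:35119293-35121928) encodes C/EBPα, which commits progenitors to the myeloid line. Of its 39 regions, 6 were called in all 12 libraries. The start region (chr7:35118034-35120242) had percentiles of 81.3 to 85.1 in the first cohort and 92 to 97.7 in the ApoE KO cohort, and covered 2152 to 2193 and 1205 to 1655 bases. An enhancer known at 37 kb downstream of the mouse start lies close to a region at 37.4 kb (chr7:35156178-35157192), which was called in 11 of 12 libraries. Its percentiles were 80.8 to 92.5 in the first cohort. ApoE KO libraries had 27.1 and 40.7 in untreated WT, 53.7 in both untreated KO, 13.9 and 17.9 in oxLDL WT and 61.8 in oxLDL KO replicate 2, while oxLDL KO replicate 1 had no peak there. The oxLDL WT lists were the shortest of this cohort, at 27571 and 24397 peaks, and no change is read from these percentiles. The leading region elsewhere was at -62.7 kb, at the neighbouring family member Cebpg, with 92.9 to 96.7 and 71.8 to 92.3.

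Cebpb (gene 12608, chr2:167688915-167690432) encodes C/EBPβ, a factor of inflammatory gene activation. Its window had 48 regions with 12 called in all libraries, the most of any member. The start region (chr2:167688557-167690158) lay at percentiles of 66 to 76.7 in the first cohort and 50.2 to 76 in the ApoE KO cohort. The leading region elsewhere was at 71.2 kb (chr2:167759522-167760608), outside genes, with percentiles of 93.5 to 94.9 and of 81.2 to 95.4. It was higher on this scale than the promoter in every library.

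Irf8 (gene 15900, chr8:120736358-120756694) encodes an interferon regulatory factor that partners PU.1 in monocyte development. Of 48 regions, 5 were called in all 12 libraries and 13 in all first-cohort but no ApoE KO library. The start region (chr8:120735791-120737685) was called in all 12, at percentiles of 83.2 to 87.1 in the first cohort and from 16.2 over a median of 63.6 to 73.5 in the ApoE KO cohort. Regions near the 2 distal enhancers known for this gene differed in their calls. A region at -50.3 kb (chr8:120685183-120686927) was called in all 12, at 88.7 to 93.1 and at 75.2 to 92.5. A region at 56.8 kb (chr8:120792672-120793708), near the enhancer known at 56 kb, had peaks in all 4 first-cohort libraries and in 0 of the other 8. Its first-cohort percentiles were 53.9 in untreated WT, 63.5 in untreated KO, 19.5 in oxLDL WT and 39.1 in oxLDL KO. In lists of equal length it was called in 4 libraries, and in the upper 50% of those lists by score in 0. ApoE KO lists were shorter, with 24397 to 44524 peaks against 82177 to 141441. The part of list length in these calls was not tested, and no change is read from the percentiles. Another region at 81.8 kb, at 76.6 to 83, was also called in the first cohort and in 0 of 8 others. With starts and enhancer distances set aside, the leading region among those called in all 12 lay at -20.5 kb, at 87.8 to 91 and 36.6 to 81.9.

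**Figure D2:**
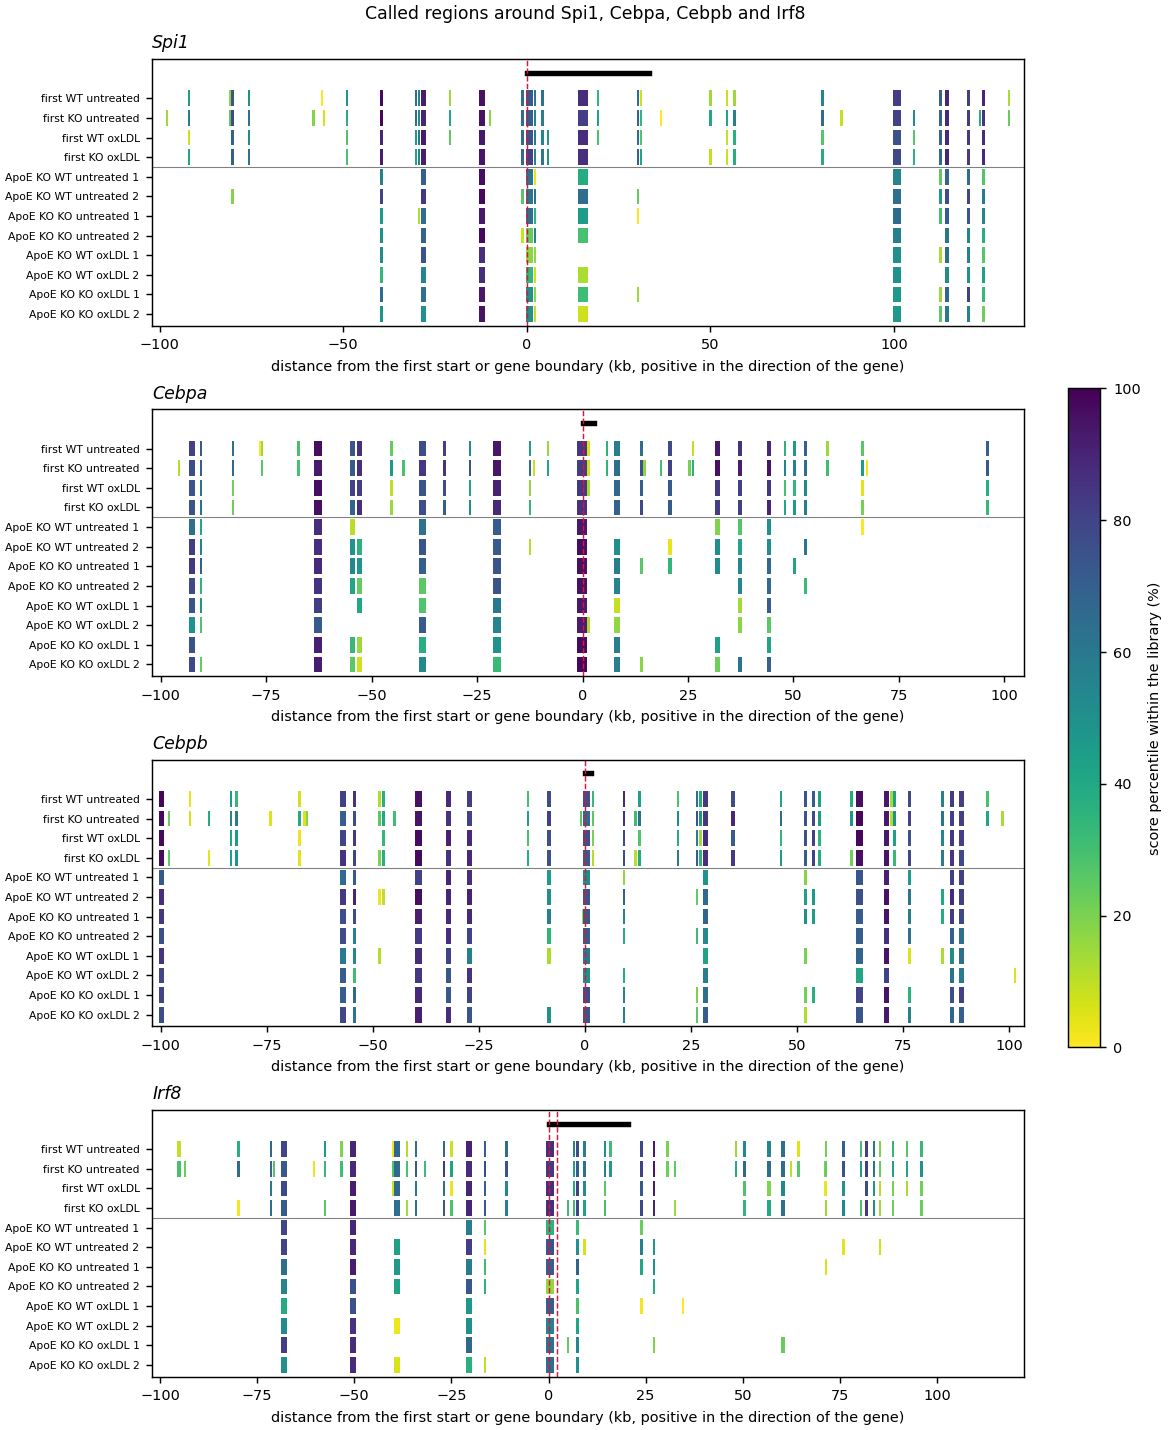
Regions called in each library (rows) around Spi1, Cebpa, Cebpb and Irf8, by distance in kb from the first start or gene boundary (x axis). Colour is the score percentile within the library, black bars are gene bodies, dashed lines are starts, and each region is drawn at its merged extent, widened to 0.6 kb where shorter. Irf8 regions past 50 kb were called in the first cohort and rarely in the ApoE KO cohort, while the region at -50.3 kb was called in all 12.

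Runx1 (gene 12394, chr16:92601466-92826074, minus strand) encodes a factor required for blood stem cell emergence that works with PU.1 in myeloid cells. It has a distal start and a proximal one within the gene. Its window is the longest and held the most regions, 85, with 6 called in all 12 libraries. Both starts were called in 12 of 12. The distal start region (chr16:92823353-92826465) had percentiles of 67.2 to 75 in the first cohort and 52.9 to 80 in the ApoE KO cohort. At the proximal start, 128 kb downstream (chr16:92696549-92698957), they were 70.8 to 80.8 and 27.6 to 73.2. The first-intron enhancer known at 23 kb lies near a region at 24.6 kb (chr16:92800633-92802352), called in 11 of 12 at 83.7 to 90.3 in the first cohort. ApoE KO libraries had percentiles of 17.9 and 50.7 in untreated WT, 50.3 and 35 in untreated KO, 17.3 and 17.9 in oxLDL WT and 50.1 in oxLDL KO replicate 1, with no peak in replicate 2. As the lists differ in length, no change between libraries is read from these percentiles. The leading region, inside the gene at 205 kb, had 95.5 to 97.7 and 69.8 to 83.6.

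By correlation of peak numbers over the 12 libraries, centred within cohort, the genes most like Runx1, the member with the most peaks (264 in all), were Dolpp1 (Pearson's r 0.966), Crat (0.953) and Ptpa (0.953). They are the highest values found, and the windows of these genes, kept apart from that of Runx1, could overlap each other. These values describe libraries that share list lengths within a cohort.

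Maf (gene 17132, chr8:115703253-115706894, minus strand) encodes c-MAF, which limits self-renewal and drives anti-inflammatory genes in macrophages. Of 23 regions, 4 were called in all 12 libraries. The region at its upper boundary (chr8:115706321-115708703) had percentiles of 79.8 to 83.9 in the first cohort and 67.2 to 86.5 in the ApoE KO cohort. The leading region was at 56.5 kb (chr8:115649829-115650907), outside genes, at 93.9 to 99.2 and 50.9 to 81.

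Klf4 (gene 16600, chr4:55527137-55532475, minus strand) encodes a Krüppel-like factor of monocyte differentiation and alternative activation. It had the fewest regions, 21, of which 6 were called in all 12 libraries. The start region (chr4:55532155-55533549) had percentiles of 78.6 to 84.3 and 79 to 91.4 in the 2 cohorts. The leading region lay at -91.1 kb (chr4:55622789-55624324), outside genes, at 97.7 to 99 and 66.7 to 94.3.

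Mef2c (gene 17260, chr13:83504017-83667079) encodes a MADS-box factor that tunes monocyte fate. It had 49 regions, 7 called in all 12 libraries and 6 of those inside the gene. No region lay within 1 kb of its first start. The merged region at the second start (chr13:83523570-83526139) was called in all 12, though peaks reached the start window itself in 6, at 80.8 to 82.6 and 56.6 to 81.6. A region at 68.3 kb (chr13:83571917-83572829), near the third start, was also called in all 12, at 84.9 to 95.1 and 75.4 to 90.7, and one at 105 kb inside the gene had 81.4 to 87.6 and 69.2 to 94.5.

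Mitf (gene 17342, chr6:97807002-98021360) encodes a bHLH factor of the MiT/TFE family, known in osteoclasts and melanocytes and related to the lysosomal regulator TFEB. Of 59 regions, 3 were called in all 12 libraries, and 0 lay within 1 kb of the third start. The first start (chr6:97806476-97807787) had percentiles of 93.5 to 97.9 in the first cohort and 81.9 to 94.3 in the ApoE KO cohort. The second start region, at 122 kb (chr6:97929117-97929891), was called in 4 of 4 first-cohort libraries at 80.8 to 98.4. Of the 8 ApoE KO libraries 3 called it, all untreated, at 36.9 in WT replicate 2 and at 30.8 and 6.3 in KO. In lists of equal length it was called in 4 libraries, those of the first cohort. The leading region elsewhere, inside the gene at 13.8 kb, had 74.7 to 81.5 and 66.8 to 89.6.

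**Figure D3:**
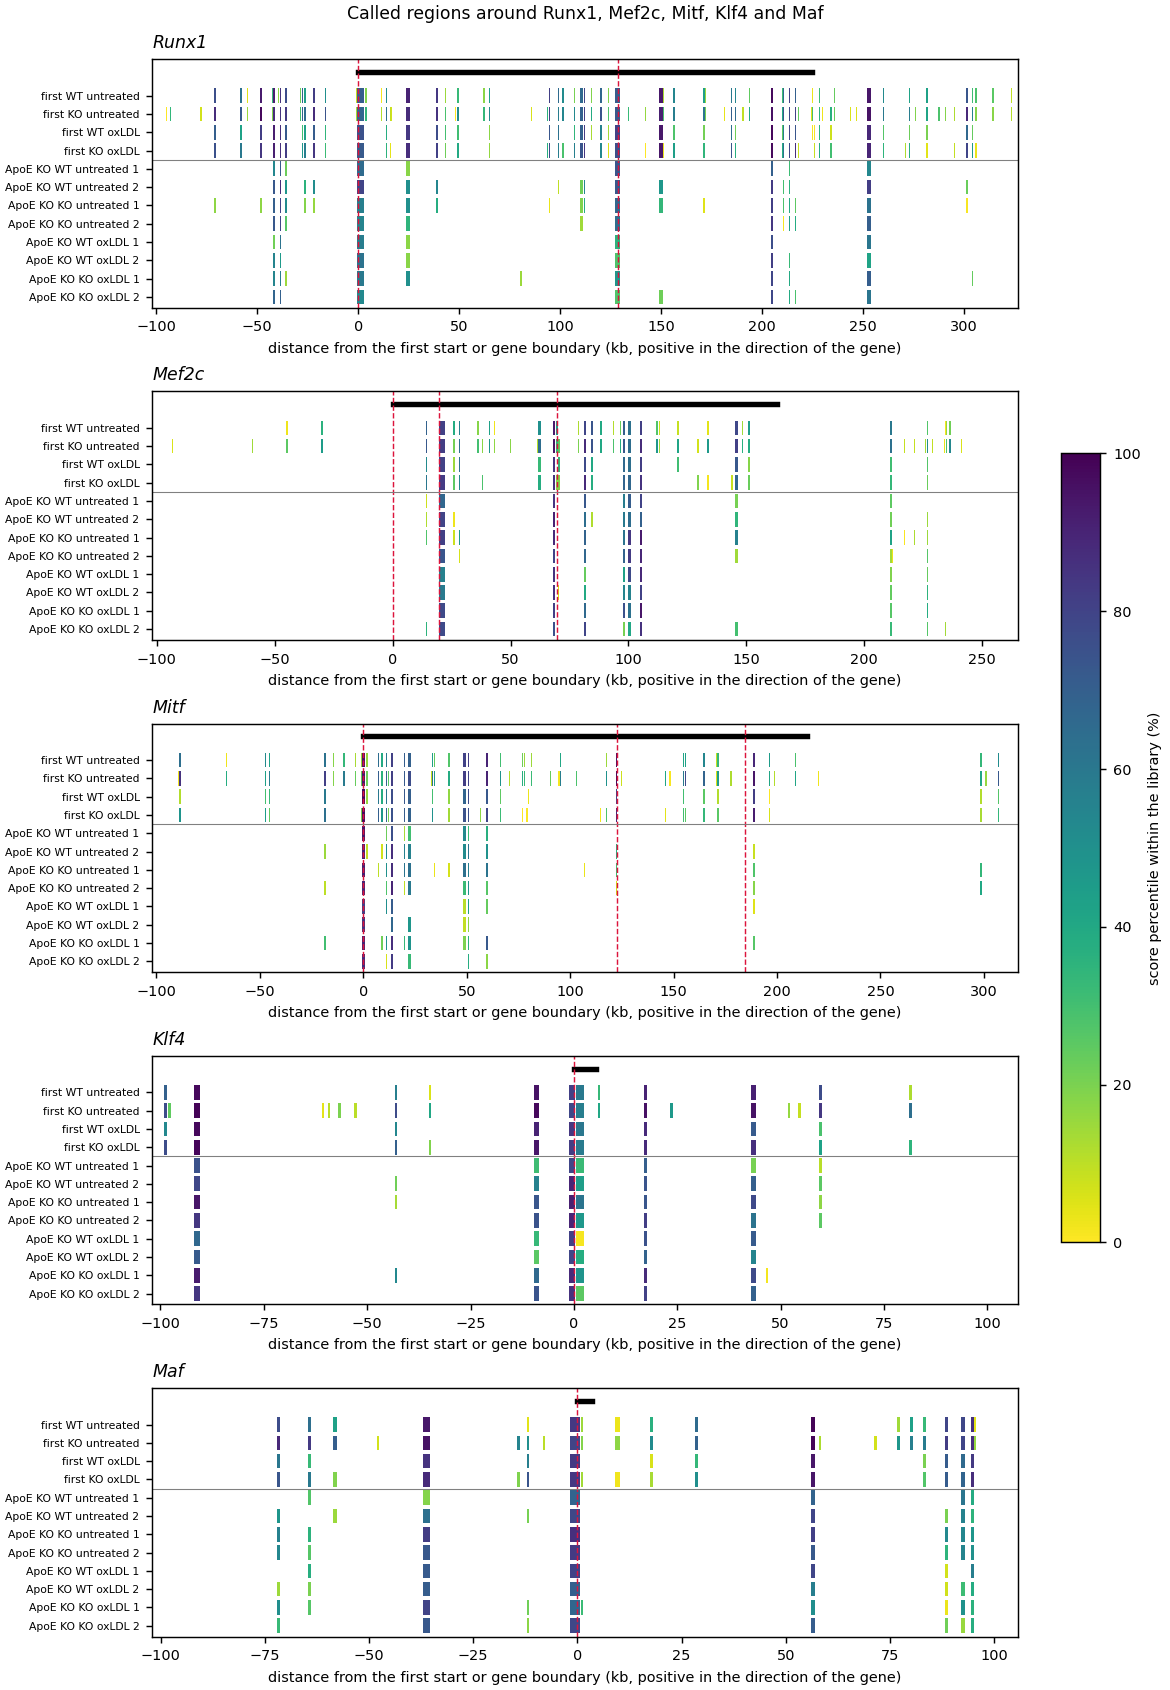
Regions called in each library (rows) around Runx1, Mef2c, Mitf, Klf4 and Maf, by distance in kb from the first start or gene boundary (x axis). Colour is the score percentile, black bars are gene bodies, dashed lines are starts, and regions shorter than 0.6 kb are widened. The first Mef2c start and the third Mitf start lie in columns with no called region, and both Runx1 starts lie in regions called in all 12 libraries.

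**Figure D4:**
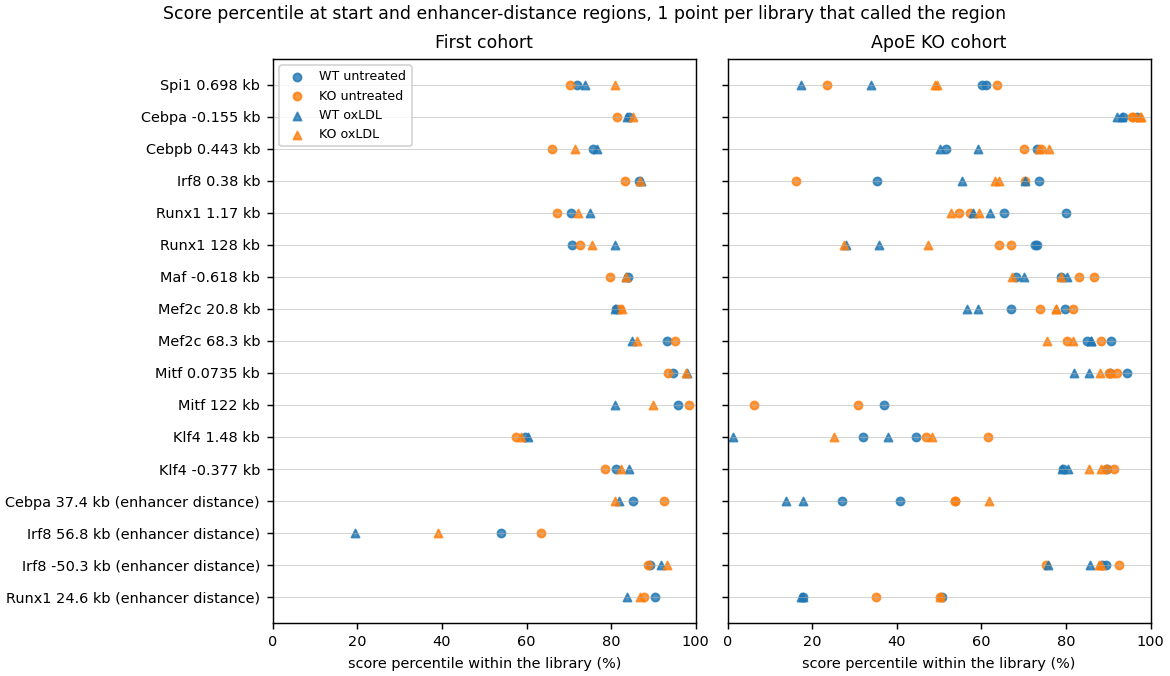
Score percentile within the library (x axis, %) at start and enhancer-distance regions (rows), 1 point per library that called the region. Colours are genotypes and shapes treatments. Points at the Cebpa start span 81.3 to 85.1 in the first cohort and 92 to 97.7 in the ApoE KO cohort, those at the first Irf8 start 83.2 to 87.1 and 16.2 to 73.5, and those at the second Mitf start 80.8 to 98.4 and 6.3 to 36.9.

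Loss of Baf60a was compared first by peaks per gene window. In limma over all 17570 genes tested, modelling group and cohort together, 0 of the 9 members and 0 genes in all (0%) passed an adjusted p under 0.05. At an unadjusted p under 0.05 there were 1998 genes (11.4%) and 0 members. KO minus WT differences in log2(peaks + 0.5) ranged from -0.23 at Spi1 to 0.09 at Maf, with 2 above and 7 below 0. The median was -0.02 over the members and -0.04 over all genes.

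Spi1 had the lowest unadjusted p among the members. First-cohort windows held 23 peaks in WT and 23 in KO without oxLDL, and 30 in WT and 28 in KO with it. ApoE KO libraries had 10 and 11 in untreated WT, 9 and 9 in untreated KO, 10 and 13 in oxLDL WT, and 10 and 7 in oxLDL KO. Group means of KO were at or below those of WT in every treatment and cohort. The difference was -0.23 (SE 0.12), with an unadjusted p of 0.0805 and an adjusted p of 0.466 by limma. In full lists it turned to 0.10, as the median over all genes moved from -0.04 to 0.22. It was -0.79 (adjusted p = 0.284, limma) with the upper 50% by score of the lists of equal length. It was -0.14 without the L001 libraries and -0.13 without oxLDL KO replicate 2 of the ApoE KO cohort.

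At Runx1 the first cohort had 46 peaks in WT and 41 in KO untreated, and 52 and 48 with oxLDL. The ApoE KO cohort had 10 and 13 in untreated WT, 9 and 11 in untreated KO, 8 and 10 in oxLDL WT and 9 and 7 in oxLDL KO. KO was lower in both first-cohort pairs, and the replicate ranges overlapped in the ApoE KO cohort. The difference was -0.16 (SE 0.13, adjusted p = 0.619, limma), and 0.31 in full lists. It was -0.37 with the upper 50% by score and -0.06 without the L001 libraries. It was -0.09 without untreated WT replicate 2 and -0.09 without oxLDL KO replicate 2 of the ApoE KO cohort, and -0.11 without untreated KO and -0.11 without oxLDL WT of the first cohort.

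Score ranks were compared at the 58 member regions called in all libraries. Limma called 0 of 17343 regions (0%) at an adjusted p under 0.05 for KO minus WT and 2509 (14.5%) at an unadjusted one, which 6 member regions met (10.3%). Of the 58, 19 were higher and 39 lower in KO, so 32.8% were higher against 47.5% of all regions. The median difference was -0.34 in log2 odds of the rank, against -0.04 over all. By gene window, Spi1 had 0 higher and 9 lower, Cebpb 2 and 10, Irf8 1 and 4, Runx1 1 and 5, and Klf4 6 and 0. Cebpa had 4 higher and 2 lower, Maf 1 and 3, Mef2c 3 and 4, and Mitf 1 and 2. The Spi1 window includes regions at Slc39a13, Psmc3 and Nr1h3, and its value at Slc39a13 was -0.000306 (SE 0.457). Regions of 1 window share their libraries and are not replicates, and no test was made of these counts.

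The Klf4 region at -9.07 kb (chr4:55540939-55542147), named after its values were seen, had the smallest p of the member regions for genotype. Its shared rank in the ApoE KO cohort was 8.59 and 15.8 in untreated WT, 33.6 and 52.4 in untreated KO, 11.3 and 10.1 in oxLDL WT, and 36.7 and 51.2 in oxLDL KO. First-cohort ranks were 73 in WT and 84.7 in KO, and with oxLDL 59.5 in WT and 71 in KO. All KO values of the ApoE KO cohort lay above all WT values, and KO was higher in both first-cohort pairs. The difference was 2.03 (SE 0.47), with an unadjusted p of 0.00073 and an adjusted p of 0.183 by limma. Leaving out 1 library at a time gave 1.72 to 2.35, and leaving out the 3 libraries marked L001 gave 1.43 (SE 0.61, adjusted p = 0.999, limma). Among the oxLDL libraries marked L003, the rank was 51.2 in KO replicate 2 and 11.3 and 10.1 in WT.

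At -91.1 kb of Klf4 the shared ranks of the ApoE KO cohort were 58.2 and 52.5 in untreated WT, 85.4 and 69.7 in untreated KO, 48.1 and 61.2 in oxLDL WT, and 84.7 and 69.6 in oxLDL KO. First-cohort ranks were 87.1 in WT and 93.2 in KO, and 89.5 and 93 with oxLDL. KO again lay above WT without overlap, with a difference of 1.32 (SE 0.42, adjusted p = 0.228, limma), and 1.08 without the L001 libraries. These were the 2 member regions of 58 with KO above WT in every library of the ApoE KO cohort, a pattern of 3.85% of all regions. Both also held in the 2 pairs of the first cohort, as did 1.76% of all.

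The distal Runx1 start went the other way. Its shared ranks in the ApoE KO cohort were 43.6 and 55.2 in untreated WT, 9.81 and 23.1 in untreated KO, 36 and 47.5 in oxLDL WT, and 27.5 and 20.4 in oxLDL KO. In the first cohort they were 6.84 in WT and 3.34 in KO, and 17.9 and 10.8 with oxLDL. KO lay below WT in both cohorts without overlap within the ApoE KO cohort, with a difference of -1.53 (SE 0.46, adjusted p = 0.213, limma). Without the 3 L001 libraries it was -0.91 (SE 0.59, adjusted p = 0.999, limma). Among the oxLDL libraries marked L003, the rank was 20.4 in KO replicate 2 and 36 and 47.5 in WT. The Mef2c region at 68.3 kb was also lower in KO without overlap in the ApoE KO cohort, a pattern found at 4.23% of all regions. Runx1 alone of the 58 also went this way in both first-cohort pairs, against 2.21% of all.

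**Figure D5:**
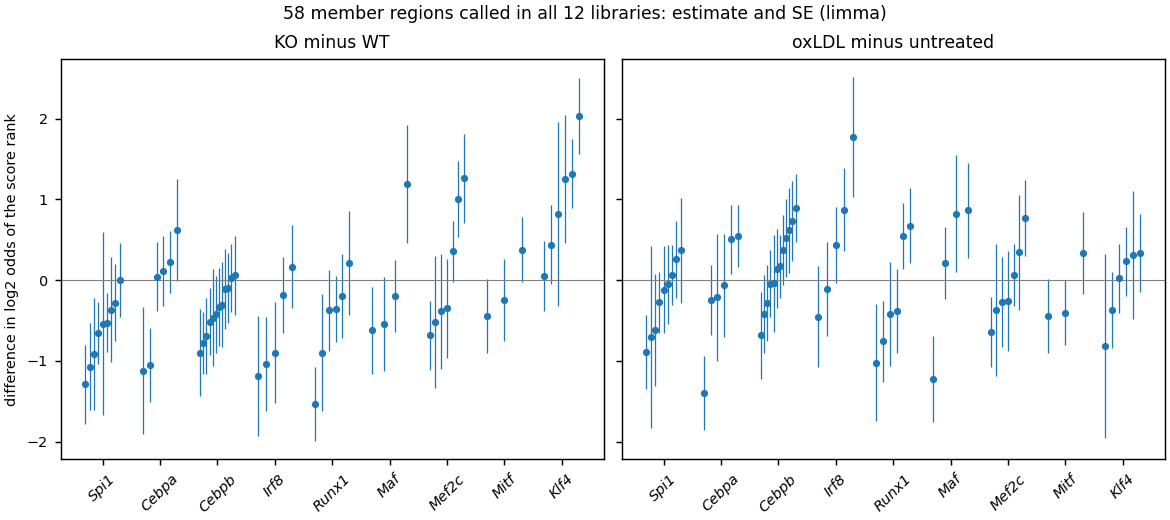
Differences in log2 odds of the shared score rank (y axis) for the 58 regions called in all 12 libraries, grouped by gene (x axis), for KO minus WT and for oxLDL minus untreated. Points are limma estimates and bars their SE. For KO minus WT all 6 regions of the Klf4 window lie above 0. All 9 of the Spi1 window, some of them at other genes, lie at or below it, from -1.29 to -0.000306.

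Widths were compared in the same fit. Limma called 0 regions (0%) for KO minus WT at an adjusted p under 0.05 and 1146 (6.61%) at an unadjusted one, with 1 member region among the latter. The 58 differences ranged from -0.41 to 0.54 in log2 bases, 27 above and 31 below 0. KO above WT without overlap in the ApoE KO cohort occurred at 0 member regions and 1.79% of all, and KO below WT at 1, the Mef2c region at 100 kb, and 2.19% of all.

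No member region was called in at least 5 of 6 KO and at most 1 of 6 WT libraries, a pattern of 0.0380% of all regions, or the reverse, found at 0.00138% of all.

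The response to oxLDL was compared in the same way. For peaks per window, limma called 0 of 17570 genes (0%) at an adjusted p under 0.05 and 1125 (6.40%) at an unadjusted one, with 0 members in either. Differences ranged from -0.31 at Mitf to 0.11 at Spi1 and Mef2c, with 3 above and 6 below 0. The members' median was -0.07 and that of all genes 0.

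Irf8 windows in the ApoE KO cohort held 7 and 8 peaks in untreated WT, 7 and 7 in untreated KO, 6 and 6 in oxLDL WT and 6 and 5 in oxLDL KO. All 4 oxLDL values lay below all 4 untreated ones, and the share of all genes with such a split was not counted. First-cohort windows held 31 in WT and 30 in KO untreated, and 32 in each with oxLDL. The difference over both cohorts was -0.19 (SE 0.08), with an unadjusted p of 0.0572 and an adjusted p of 0.76 by limma. It was -0.35 in full lists, -0.31 in the ApoE KO cohort alone and -0.10 without the L001 libraries, and turned to 0.22 with the upper 50% by score.

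Mitf had 7 and 8 peaks in untreated WT, 8 and 7 in untreated KO, 5 and 5 in oxLDL WT and 7 and 4 in oxLDL KO of the ApoE KO cohort. The first cohort had 30 in WT and 26 in KO untreated, and 30 and 29 with oxLDL. Values with oxLDL reached as low as 4 in the ApoE KO cohort and were at or above the untreated ones of the same genotype in the first cohort. The difference was -0.31 (SE 0.15, adjusted p = 0.76, limma). It was -0.65 in full lists (adjusted p = 0.0847, limma), -0.50 in the ApoE KO cohort alone and -0.19 without oxLDL KO replicate 2 of that cohort, and turned to 0.06 with the upper 50% by score.

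The interaction of genotype with oxLDL was called at 0 of 17570 genes (0%) by limma, with 706 (4.02%) and 0 members at an unadjusted p under 0.05. Member values ranged from -0.46 at Maf to 0.12.

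For score ranks, limma called 0 regions (0%) for oxLDL minus untreated at an adjusted p under 0.05 and 1534 (8.85%) at an unadjusted one, which 3 of 58 member regions met. Of the 58, 28 were higher and 30 lower with oxLDL. At the first Irf8 start, shared ranks in the ApoE KO cohort were 11.4 and 41.8 in untreated WT and 28.1 and 1.19 in untreated KO, against 53.6 and 39.3 in oxLDL WT and 32.4 and 34.7 in oxLDL KO. First-cohort ranks were 37.6 in WT and 23.4 in KO untreated, and 47.6 and 42.1 with oxLDL. Values with oxLDL were higher in both first-cohort pairs and overlapped the untreated ones in the ApoE KO cohort. The difference was 1.77 (SE 0.74, adjusted p = 0.514, limma), and 0.985 to 2.33 with 1 library left out. The lowest value came with untreated KO replicate 2, at 1.19.

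The Maf region at 56.5 kb had shared ranks of 95.3 in WT and 93.2 in KO untreated and of 73 and 72.5 with oxLDL in the first cohort. In the ApoE KO cohort they were 48.3 and 53.9 in untreated WT, 51.8 and 48.4 in untreated KO, 67.1 and 42.1 in oxLDL WT and 18 and 45.6 in oxLDL KO. Values with oxLDL were lower in the first cohort and overlapped in the ApoE KO cohort, with a difference of -1.22 (SE 0.54, adjusted p = 0.535, limma), and -0.51 (SE 0.60) in the ApoE KO cohort alone.

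A Cebpa region at -20.2 kb (chr7:35098182-35099913), named after its values were known, had the smallest p of the member regions for score rank with oxLDL. First-cohort shared ranks were 69.6 in WT and 65.2 in KO untreated, and 59.6 and 47.4 with oxLDL. ApoE KO libraries had 52.4 and 38.2 in untreated WT, 36.1 and 52.4 in untreated KO, 38 and 38.4 in oxLDL WT, and 15.6 and 5.5 in oxLDL KO. Values with oxLDL were lower in both first-cohort pairs and overlapped in the ApoE KO cohort. The difference was -1.40 (SE 0.46), with an unadjusted p of 0.0091 and an adjusted p of 0.411 by limma. With 1 library left out it was -1.69 to -1.04.

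Groups were apart for oxLDL above untreated at 0 member regions in the ApoE KO cohort, against 2.04% of all, and in both cohorts at 0 against 0.611%. For oxLDL below untreated the count was 2, against 1.72%, and in both cohorts 0 against 0.634%. Both regions were at Runx1, the proximal start at 128 kb and a region at -38.4 kb, and both went the other way in the first cohort, as did 1.41% of all regions. For genotype such opposite directions were found at 0 member regions and 1.08% of all.

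Widths with oxLDL gave 0 regions (0%) at an adjusted p under 0.05 and 1235 (7.12%) at an unadjusted one, among them 5 of the 58. Of these 5, 1 was wider and 4 were narrower with oxLDL. The wider one, the Mef2c region at 98 kb, had the smallest p (difference 0.605, SE 0.171, unadjusted p = 0.00449, adjusted p = 0.675, limma). The Irf8 region at -20.5 kb (chr8:120715188-120716599) covered 892 and 1102 bases in untreated WT, 1131 and 962 in untreated KO, 238 and 319 in oxLDL WT, and 436 and 712 in oxLDL KO of the ApoE KO cohort. In the first cohort it covered 1135 in WT and 1176 in KO untreated, and 1015 and 985 with oxLDL. Every oxLDL library was narrower than every untreated library of its cohort, and the share of all regions with this split in both cohorts was not counted. The difference was -0.78 (SE 0.22) in log2 bases less the library median, with an adjusted p of 0.675 by limma, and -0.46 (SE 0.30) without the 3 L001 libraries. In the ApoE KO cohort 3 of 58 member regions were narrower with oxLDL without overlap, at Irf8, at Cebpa (-37.9 kb) and at Cebpb (-54.3 kb), against 1.57% of all. Wider without overlap were 2, at Maf (-36.3 kb) and at Klf4 (-0.377 kb), against 2% of all.

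Calls that followed treatment were few. Over both cohorts, 0 member regions were called in at least 5 of 6 untreated and at most 1 of 6 oxLDL libraries, against 0.0401% of all, and 0 the other way, as in all regions (0%). Within the ApoE KO cohort 5 of 411 (1.22%) were called in 4 of 4 untreated and at most 1 of 4 oxLDL libraries, against 0.574% of all. They lay at Irf8 (-16.3 kb), Runx1 (-35.8 kb), Mef2c (146 kb), Mitf (19.8 kb) and Klf4 (59.6 kb). All 5 were called in 4 of 4 first-cohort libraries, oxLDL included. Untreated lists of this cohort were longer, 29064 to 44524 peaks against 24397 to 35589, and in lists of equal length 1 region, another at Mitf (49.1 kb), met the rule (0.243%, against 0.219%).

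Related genes of the same families and pathways were read from 2 lists. Of 33 related factors, 31 were autosomal and tested, and by limma 0 passed an adjusted p under 0.05 in either comparison. For KO minus WT 15 were above and 16 below 0, with a median of 0. Spib, the PU.1 relative of B cells, had -0.19 (adjusted p = 0.338) and Runx2, the bone factor, 0.23 (adjusted p = 0.427). For oxLDL 13 were above and 18 below 0. Spib had the smallest p of these, at -0.22 (unadjusted p = 0.000844, adjusted p = 0.73, limma), Tfeb had -0.19 (adjusted p = 0.73) and Tfec, a relative of Mitf, 0.32 (adjusted p = 0.76). Of 20 macrophage genes that these factors control, 8 were above and 12 below 0 for KO minus WT and 10 and 10 for oxLDL, again with 0 called. Csf2rb, a shared cytokine receptor chain, had -0.29 for KO minus WT (adjusted p = 0.402, limma) and Mpeg1, a pore-forming protein of phagocytes, 0.14 (adjusted p = 0.703). For oxLDL the scavenger receptor gene Msr1 had -0.28 (unadjusted p = 0.00172, adjusted p = 0.73, limma), the mannose receptor gene Mrc1 -0.21 (adjusted p = 0.73) and Csf2rb 0.23 (adjusted p = 0.76).

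In these bulk libraries, a site open in fewer cells and a site less open in each cell cannot be told apart.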

How the data were processed

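The 12 BMDM libraries, 8 of them of the ApoE KO cohort, were sequenced as read pairs of 150 bases, per the labels' protocols. The submitters' processing notes name build mm10, MACS3 (first cohort) or MACS2, Bowtie2 2.3.4.1, SAMtools 1.2, bedtools 2.28.0, Picard, cutadapt, Trim Galore and FastQC. Parameters, any transposase shift and any duplicate removal are not given in the sources used. One deposited list per library means that calls were made sample by sample. Every peak carries the authors' score, a whole number of 13 or more. The ApoE KO lists also carry the authors' fold enrichment and the deposited -log10 of p and q, which were not used. Depth is unknown and no counting intervals are given.

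Lists of equal length kept the highest scores of each library, 82177 peaks per first-cohort library and 24397 per ApoE KO library. Gene positions came from RefSeq GRCm38.p6 on 19 autosomes. The limma package (3.58.1, R 4.3.3) tested log2(peaks + 0.5) per window over 17570 genes that averaged 1 peak or more. It also tested score rank (log2 odds) and log2 width less the library median over 17343 regions called in all 12 libraries. Terms were genotype-by-treatment group and cohort, and p-values were adjusted by Benjamini-Hochberg over all genes or regions. The fits were run on simulated data with changes planted between genotypes. For peaks per window these changes were larger than any member's difference, so detection of differences as small as the members' was not tested. Python 3.11.15 with pandas 2.3.3, numpy 2.4.6 and matplotlib 3.10.9 did the rest. Regions named were those within 1 kb of a start, within 2 kb of a known enhancer distance, and the highest-scoring other region per gene. The members and lists were chosen with earlier results of these data known. Alternatives were full lists, a 50 kb window, a pseudocount of 1 and no filter. Another was the upper 50% by score, taken from the lists of equal length. The rest were the ApoE KO cohort alone, a replicate block, a stricter overlap, and leaving out each library or the 3 libraries with the mark L001.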

Additional observations from a re-analysis of the deposited data

Results flagged for a closer look

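At 2 Runx1 regions the libraries with oxLDL went in opposite directions in the 2 cohorts, and the difference between cohorts was not tested. At the proximal start, 128 kb from the distal one, the mean shared score rank of the ApoE KO cohort was 38.2 untreated and 10.9 with oxLDL, a difference of -27.2 percentage points. In the first cohort it was 6.89 untreated and 22.3 with oxLDL, a difference of 15.4. All 4 oxLDL libraries of the ApoE KO cohort lay below all 4 untreated ones, at 13.2, 12, 15 and 3.6 against 55.7, 39.9, 22 and 35.2. At -38.4 kb the ApoE KO means were 58.8 untreated and 34.2 with oxLDL, a difference of -24.6, and the first-cohort means 31.7 and 43.8, a difference of 12.1. Such opposite directions were found at 2 of 58 member regions and at 1.41% of all regions for oxLDL, and at 0 member regions and 1.08% of all for genotype.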

How the results depend on the processing

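Counts of genes past an adjusted p under 0.05 were 0 by limma for genotype, oxLDL and interaction, and rose to 262, 178 and 162 in the ApoE KO cohort alone, and to 19 for oxLDL in full lists. None of these was a member, and the cause was not tested. With 1 library left out they ranged from 0 to 5, 0 to 3 and 0 to 4. For regions, rank with oxLDL gave 1 where peaks had to cover 50% of the region, and width with genotype gave 1 in the ApoE KO cohort alone. With 1 library left out the counts were 0 to 11 for rank with genotype, 0 to 1 for rank with oxLDL, 0 to 2 for width with genotype and 0 for width with oxLDL. Member regions called in all 12 fell from 58 to 48 in lists of equal length, 20 in their upper 50% and 9 where peaks had to cover 50% of the region, and were 58 to 63 with 1 library left out. Regions of the untreated ApoE KO libraries, 5 in full lists, were 1 in lists of equal length, 14 without the 3 L001 libraries, 5 to 9 with 1 library left out, and 9 without WT untreated replicate 1. The settings tried on this last count were chosen after seeing the data.

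Same-numbered libraries of the ApoE KO cohort were compared by their deviations from the group mean in log2(peaks + 0.5) per gene. Over 6 pairs of groups these deviations had correlations of -0.129 to 0.0276. They cannot show whether the libraries share an animal or a batch. A replicate block left every count at 0. Of 144 member values under other settings 111 kept their direction and 33 reversed, all within calls that did not pass. Reversed KO minus WT values in log2(peaks + 0.5) were Spi1 0.0998, Cebpa 0.232, Cebpb 0.126, Irf8 0.135, Runx1 0.305, Mef2c 0.233 and Mitf 0.41 with full lists. Reversed values were Cebpa 0.0311, Cebpb 0.0117, Irf8 0.00517, Maf -0.0013, Mitf 0.0102 and Klf4 -0.0115 with the libraries without L001. Reversed values were Cebpb 0.0697 and Klf4 -0.0243 with a 50 kb window. Reversed values were Cebpb 0.0113, Maf -0.0872, Mef2c 0.00962 and Mitf 0.0994 with the upper 50% by score. Reversed values were Cebpb 0.00534 and Mitf 0.0395 with the ApoE KO cohort alone. For oxLDL they were Spi1 -0.13, Mef2c -0.472 and Klf4 -0.35 with full lists. Others were Klf4 -0.0316 with the libraries without L001. Others were Maf 0.21 with a 50 kb window. Others were Spi1 -0.052, Cebpb 0.0393, Irf8 0.221, Maf 0.0872 and Mitf 0.0624 with the upper 50% by score. Others were Maf 0.0451 and Klf4 -0.0237 with the ApoE KO cohort alone. In full lists the medians over all genes were 0.224 for genotype and -0.29 for oxLDL. With 1 library left out, 28 of 216 values reversed, within -0.0531 to 0.0605 for Cebpa, -0.0416 to 0.0265 for Cebpb, -0.113 to 0.0157 for Mef2c, -0.0938 to 0.103 for Mitf and -0.0537 to 0.114 for Klf4 by genotype, and -0.0876 to 0.0424 for Maf and -0.0852 to 0.0823 for Klf4 by oxLDL. All 105 values of 7 single regions kept their direction. Each of these regions had an unadjusted p under 0.05 by limma in the main fit, and values picked this way are less apt to reverse.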
